A study of Mus musculus with 2 samples.

Results

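The 35 genes described here encode the folding and quality control machinery of the endoplasmic reticulum (ER) together with the sensors, transcription factors and outputs of the unfolded protein response (UPR). They were taken as a named list, without a threshold on measured values, and all 35 were among the 24014 genes of the tables. By role they comprised 11 lumenal chaperones and co-factors, 2 lectin chaperones, 4 protein disulfide isomerases, 9 genes of ER-associated degradation, 6 sensors and transcription factors, and 3 outputs of the integrated stress response.

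Secreted and membrane proteins enter the ER unfolded, where chaperones, lectins and disulfide isomerases fold them and ER-associated degradation removes those that fail. When unfolded proteins build up, the sensors IRE1 (gene Ern1), PERK (Eif2ak3) and ATF6 raise the folding capacity through the factors XBP1, ATF4 and ATF6 itself, and PERK slows translation. In bone marrow, plasma cells secrete antibody and depend on XBP1, while granulocyte progenitors fill their granules with proteases and peroxidases made in the ER.

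Bone marrow of wild type male mice, of a strain the labels spell C57B/6 and described as young when the diets began, was captured on the BD Rhapsody platform, which counts messenger RNA molecules by unique molecular identifier (UMI). The animals ate chow (normal diet, ND) or a diet with 60% fat (high-fat diet, HFD) for 16 weeks, to compare marrow and neutrophils under the diets. There was 1 library per diet, and the labels name neither how many mice were behind it nor any sort or gate. The differences between diets therefore compare 2 libraries and have no replicate check, and intervals cover counting error only.

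The ND library held 16817 cells with 117999042 UMIs and the HFD library 17282 cells with 117773643, at medians of 3644 and 3626 UMIs per cell, and 329 cell indexes occurred in both. After filtering, 13896 and 15218 cells remained, with median mitochondrial shares of 7.08% and 6.21%. They fell into 31 clusters, built without the 35 genes. The clusters were named from marker genes and are called plasma cell-like and so on for that reason. 18 classes held at least 100 cells in both libraries, and 1 cluster stayed unnamed. Plasma cell-like cells (141 ND and 135 HFD cells) had 21 of 22 plasma cell markers, and neutrophil progenitor-like cells (571 and 638) had 12 of 12 of theirs, at a higher level than the remaining cells in both libraries. The same marker lists gave the clusters their names, so these counts describe the classes and are no separate check of the names.

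The promoters of these genes are shown because the UPR is known to act through a short promoter element, the ER stress response element (ERSE), read by ATF6 and XBP1 together with the general factor NF-Y. RefSeq promoter windows on mouse build GRCm38.p6, from 250 bases before to 50 bases after the annotated start, were at hand for 30 of the 35 genes, and Hyou1, Manf, Mzb1, Derl1 and Atf6 were not matched. The letters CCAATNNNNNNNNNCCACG, searched on both strands, were found in the windows of 9 of the 30 genes (30.0%), against 0.137% of all 27025 genes in the table. Matches are given as read 5′ to 3′ on the strand that holds them, with both ends of the element in capitals.

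Hspa5 (chr2:34772025-34772043, strand of the gene, bases -65 to -47 from the start): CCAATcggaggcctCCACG
Hsp90b1 (chr10:86705638-86705656, strand of the gene, bases -212 to -194): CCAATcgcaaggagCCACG
Hsp90b1 (chr10:86705533-86705551, opposite strand, bases -107 to -89): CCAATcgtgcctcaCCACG
Calr (chr8:84847075-84847093, opposite strand, bases -162 to -144): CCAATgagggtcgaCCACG
Canx (chr11:50325800-50325818, strand of the gene, bases -145 to -127): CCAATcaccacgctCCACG
Creld2 (chr15:88819520-88819538, opposite strand, bases -126 to -108): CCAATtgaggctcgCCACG
Derl3 (chr10:75893242-75893260, opposite strand, bases -156 to -138): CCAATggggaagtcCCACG
Dnajc3 (chr14:118937827-118937845, strand of the gene, bases -105 to -87): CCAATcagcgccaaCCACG
Pdia6 (chr12:17266491-17266509, strand of the gene, bases -98 to -80): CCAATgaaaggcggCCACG
Syvn1 (chr19:6046532-6046550, strand of the gene, bases -44 to -26): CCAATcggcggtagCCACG

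The whole window of Hspa5, the gene of the ER HSP70 chaperone BiP and the usual reporter of the UPR, lies at chr2:34771840-34772139 on the plus strand and is printed with its ERSE in capitals.

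Hspa5 promoter window: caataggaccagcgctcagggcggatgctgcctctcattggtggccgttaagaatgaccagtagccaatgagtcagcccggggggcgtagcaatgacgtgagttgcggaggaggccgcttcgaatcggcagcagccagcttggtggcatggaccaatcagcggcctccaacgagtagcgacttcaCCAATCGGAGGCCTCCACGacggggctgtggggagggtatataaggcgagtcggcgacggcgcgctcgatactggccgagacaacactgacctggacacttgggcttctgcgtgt

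The shorter element ERSE-II, ATTGGNCCACG, was found in the windows of Dnajb11 and Herpud1 (2 of 30 genes, 6.67%, against 0.0444% of all genes). Both matches lay on the strand of the gene.

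Herpud1 (chr8:94386377-94386387, bases -52 to -42): ATTGGgCCACG
Dnajb11 (chr16:22857852-22857862, bases 7 to 17): ATTGGcCCACG

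No match of the UPR element TGACGTGG or of TGATGNAAT, a form of the core read by ATF4, was found in the 30 windows. Of all genes, 0.714% and 1.08% had a match. The Asns window held TGATGAAAC, which differs from the letters searched in its last base alone and was not counted. A match describes the letters only. Derl3, with a match, was close to restricted to plasma cell-like cells, while Canx, with a match, was higher in neutrophil progenitor-like and erythroid-like than in plasma cell-like cells.

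Pooled over the cells of each class, the summed UMIs of the 35 genes took the largest share in plasma cell-like cells, followed by 3 granule-making classes. The share was 2.002% (1.98 to 2.02%, 95% Poisson interval) in the ND and 2.12% (2.10 to 2.14%) in the HFD library in plasma cell-like cells. It was 1.21% and 1.38% in eosinophil-like, 1.14% and 1.22% in neutrophil progenitor-like, and 1.05% and 1.12% in basophil or mast cell-like cells. Pooled shares weigh deep cells most, and the median cell gave another order. Its share was 1.81% and 1.78% in plasma cell-like and 1.13% and 1.20% in neutrophil progenitor-like cells. Lower were eosinophil-like (0.779% and 0.686%), plasmacytoid dendritic cell-like (0.716% and 0.774%) and basophil or mast cell-like cells (0.629% and 0.621%). Immunoglobulin UMIs made up 46.2% and 48.6% of all UMIs in plasma cell-like cells, which lowers the share of every other gene there. Of the UMIs that were not immunoglobulin, the 35 genes took 3.72% and 4.13% there.

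**Figure D1:**
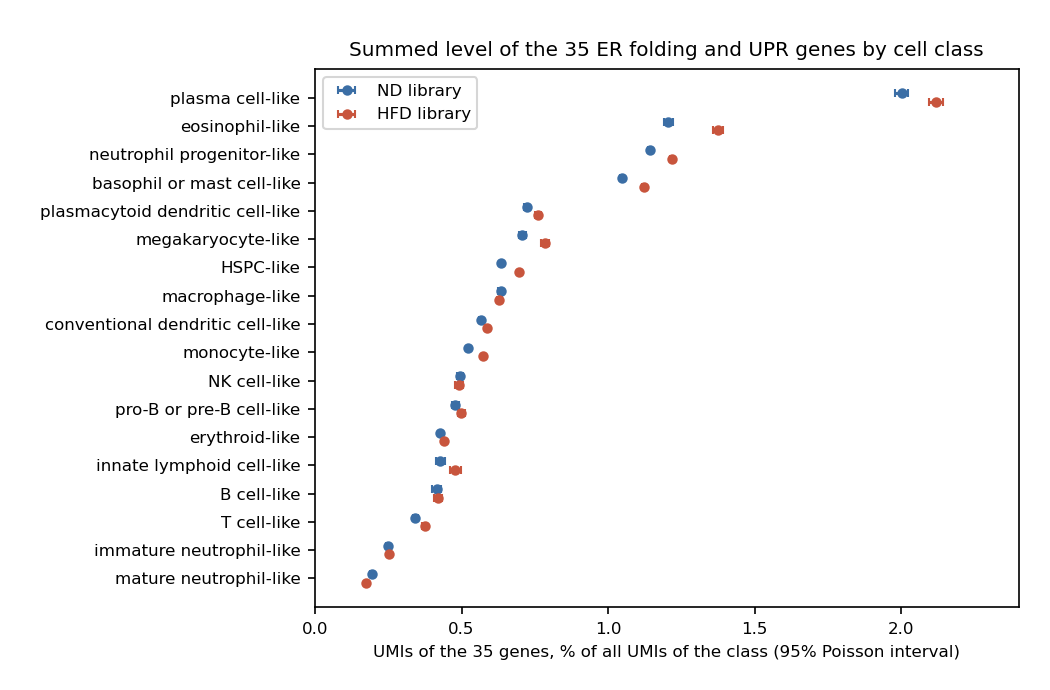
Summed UMIs of the 35 genes as a percentage of all UMIs of each cell class (x axis), with 1 point per library and 95% Poisson intervals for counting error. Plasma cell-like cells stand at 2.002% and 2.12%, eosinophil-like, neutrophil progenitor-like and basophil or mast cell-like cells lie between 1.05% and 1.38%, and mature neutrophil-like cells are lowest at 0.194% and 0.175%.

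At the other end, immature neutrophil-like cells stood at 0.247% and 0.252% and mature neutrophil-like cells at 0.194% and 0.175%. Basophil or mast cell-like cells were not uniform. Their cluster 11, led by the basophil proteases Mcpt8 and Prss34, stood at 1.30% and 1.39%, and cluster 25, led by the chemokines Ccl4 and Ccl3, at 0.545% and 0.528%.

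Levels of single genes are given as CPM, the UMIs of the gene scaled to 1000000 UMIs of the class, ND library first, and each gene is compared only with itself across classes. In all, 19 of the 35 genes were highest in plasma cell-like cells in both libraries. With immunoglobulin UMIs left out of the totals, 26 were, the 7 further genes being Hspa5, Pdia6, Derl2, Syvn1, Ern1, Eif2ak3 and Trib3. Eif2ak3 and Trib3 had under 100 UMIs over both libraries in plasma cell-like cells, so their place is uncertain. Orders of classes are over the 18 named classes, without the unnamed cluster, and with all UMIs in the totals unless said otherwise.

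**Figure D2:**
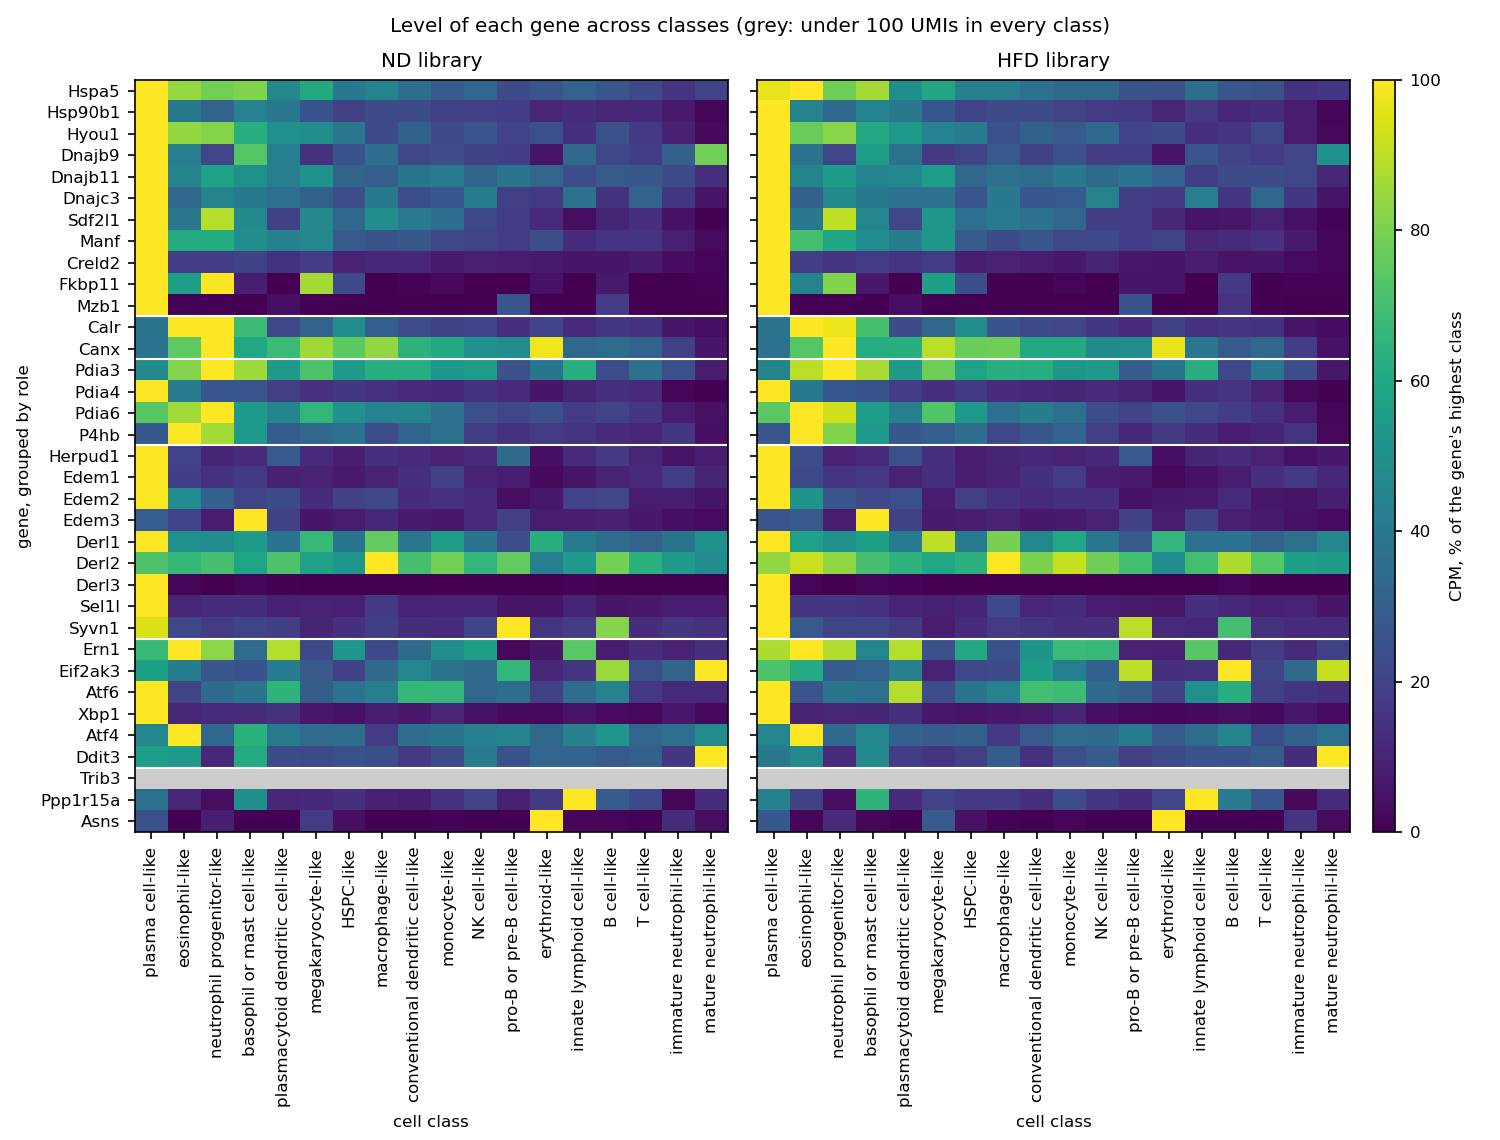
CPM of each gene in each class as a percentage of the gene's highest class, for the ND library (left) and the HFD library (right), with genes grouped by role between white lines. Mzb1, Derl3, Xbp1, Creld2 and Sel1l are bright in the plasma cell-like column only, while Calr, Canx and Pdia3 peak in other columns; Trib3 is grey because it had under 100 UMIs in every class.

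Among the lumenal chaperones, Hspa5 (BiP) was at 1925 CPM (1857 to 1995) and 1972 (1901 to 2044) in plasma cell-like cells. Eosinophil-like cells followed with 1624 in the ND library and were above them with 2052 (1986 to 2118) in the HFD library, so the order of these classes was not the same in both. Without immunoglobulin UMIs plasma cell-like cells were first in both libraries, with 3575 and 3840 CPM against 1631 and 2052 in eosinophil-like cells. Hsp90b1 (GRP94), the ER form of HSP90, was at 4351 and 4418 CPM in plasma cell-like cells, against 1922 and 1989 in basophil or mast cell-like cells, the next class. Its intervals did not overlap between those classes.

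Co-factors of BiP were likewise highest in plasma cell-like cells, with different classes next. Dnajc3 (p58IPK), a J-protein that brings clients to BiP, was at 828 and 797 CPM in plasma cell-like cells and at 369 and 376 in neutrophil progenitor-like cells, the next class. Dnajb11 (ERdj3) was at 199 and 204, against 114 and 115 in the next class of each library. Hyou1 (GRP170), a nucleotide exchange factor, was at 176 (156 to 198) and 186 in plasma cell-like cells, and in the ND library its interval overlapped that of eosinophil-like cells at 148.

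Sdf2l1, which works with ERdj3, stood nearly as high in neutrophil progenitor-like cells (324 and 341 CPM) as in plasma cell-like cells (364 and 377), and the HFD intervals overlapped. Without immunoglobulin UMIs Sdf2l1 was at 676 and 733 in plasma cell-like cells, against 324 and 341 in neutrophil progenitor-like cells. Dnajb9 (ERdj4), a J-protein that represses IRE1, reached 297 and 377 CPM in plasma cell-like cells but was low in neutrophil progenitor-like cells (61.6 and 78.2). Manf, a secreted ER stress factor, was at 540 and 557 CPM, against 333 and 392 in eosinophil-like cells. Creld2, also an ER stress-induced protein, was at 496 and 535 CPM, against 97.4 and 98.5 in the next class.

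The remaining co-factors were the most unequal. Mzb1, which helps GRP94 fold antibody chains, was at 1821 and 1948 CPM in plasma cell-like cells, at 482 and 503 in pro-B or pre-B cell-like cells, and at 0.704 and 1.57 in neutrophil progenitor-like cells. Fkbp11, a prolyl isomerase of secretory cells, had few UMIs. With all UMIs in the totals it did not differ between plasma cell-like (43.4 and 54.9 CPM) and neutrophil progenitor-like cells (43.1 and 44.5) beyond its intervals. Without immunoglobulin UMIs it was highest in plasma cell-like cells, with 80.7 and 107, against 43.1 and 44.5 in neutrophil progenitor-like cells.

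With all UMIs in the totals, the lectin chaperones and 3 of the 4 disulfide isomerases were highest outside the plasma cell-like class. Calr (calreticulin), which folds glycoproteins in the lumen and is needed for myeloperoxidase, was at 3105 (3075 to 3136) and 3383 CPM in neutrophil progenitor-like cells and at 3095 and 3471 in eosinophil-like cells. The intervals of these classes overlapped in both libraries. Plasma cell-like cells were in the fifth place in both libraries, with 1206 and 1332. Without immunoglobulin UMIs their level was 2241 and 2594, in the third place. Canx (calnexin), its membrane-bound relative, was at 832 and 845 in neutrophil progenitor-like and at 814 and 820 in erythroid-like cells, and at 316 and 314 in plasma cell-like cells. Without immunoglobulin UMIs plasma cell-like cells were at 587 and 612 for Canx.

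Pdia3 (ERp57), the isomerase that works with both lectins, was likewise highest in neutrophil progenitor-like cells (642 and 692 CPM) and at 306 and 310 in plasma cell-like cells. Without immunoglobulin UMIs neutrophil progenitor-like cells stayed first for Pdia3, with plasma cell-like cells closer at 568 and 603. P4hb (PDI) was highest in eosinophil-like cells (978 and 1030), followed by neutrophil progenitor-like cells (842 and 833). Without immunoglobulin UMIs plasma cell-like cells were at 497 and 532 for P4hb, in the fourth place. Pdia6 was at 401 and 415 in neutrophil progenitor-like, 346 and 448 in eosinophil-like and 298 and 332 in plasma cell-like cells. Without immunoglobulin UMIs Pdia6 was highest in plasma cell-like cells, with 553 and 647 against 401 and 448 in the next class of each library. Pdia4 (ERp72) was highest in plasma cell-like cells on both totals, with 575 and 618 CPM against 239 and 249 in eosinophil-like cells.

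The genes of ER-associated degradation were split more sharply. Derl3, a derlin of the channel through which misfolded proteins leave the ER, was at 609 (571 to 649) and 614 (575 to 655) CPM in plasma cell-like cells and at 10.02 and 10.4 in the next class of each library. Sel1l, the adaptor of the HRD1 ligase, was at 670 and 571, against 114 and 124 in macrophage-like cells. Edem1, a lectin that trims mannose from failed glycoproteins, was at 706 and 777 CPM, against 139 and 175 in the next class of each library. Its relative Edem2 was at 102 and 143, with 49.5 and 74.4 in eosinophil-like cells. Herpud1, which assembles the ligase complex, was at 1156 and 1427, against 398 and 396 in pro-B or pre-B cell-like cells.

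The other degradation genes were less unequal or had their highest level in another class. Edem3 was highest in basophil or mast cell-like cells (236 and 239 CPM, against 70.2 and 63.0 in plasma cell-like cells), and within them in cluster 11 (317 and 310). Syvn1, the HRD1 ligase itself, was at 223 and 282 in plasma cell-like and at 235 and 252 in pro-B or pre-B cell-like cells, which did not differ beyond their intervals. Without immunoglobulin UMIs it was highest in plasma cell-like cells, with 414 and 549. Derl1 was highest in plasma cell-like cells, at 199 and 197, with macrophage-like cells at 152 in the ND and megakaryocyte-like cells at 178 in the HFD library. Derl2 varied least of the 3 derlins across classes, with 73.4 and 66.5 in macrophage-like cells at the top and 31.4 and 32.4 in erythroid-like cells at the bottom. Without immunoglobulin UMIs Derl2 was highest in plasma cell-like cells, with 98.5 and 108.

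Of the sensors and factors, Xbp1, which IRE1 splices into its active form, was at 1566 (1504 to 1629) and 1739 (1672 to 1807) CPM in plasma cell-like cells. The next class was plasmacytoid dendritic cell-like cells with 222 and 238, and neutrophil progenitor-like cells had 190 and 187. UMI counts do not separate the spliced from the unspliced form. Atf6 was at 149 and 147 in plasma cell-like cells, and in the HFD library its interval overlapped that of plasmacytoid dendritic cell-like cells at 131. Ern1 was highest in eosinophil-like (99.1 and 82.6), plasmacytoid dendritic cell-like (87.9 and 73.5) and neutrophil progenitor-like cells (82.0 and 72.7), with 67.0 and 72.4 in plasma cell-like cells. Without immunoglobulin UMIs plasma cell-like cells were first for Ern1, with 125 and 141 against 99.5 and 82.7 in eosinophil-like cells.

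The order of classes for the PERK branch also turned on the total. With all UMIs, Eif2ak3 was at 46.1 and 39.1 CPM in mature neutrophil-like and at 39.2 and 42.9 in B cell-like cells. Atf4, the factor translated when PERK acts, was at 508 and 616 in eosinophil-like cells and at 232 and 279 in plasma cell-like cells. Ddit3 (CHOP), a target of ATF4, was highest in mature neutrophil-like cells (55.7 and 73.1) and lowest of all 18 classes in neutrophil progenitor-like cells (6.26 and 8.79) in both libraries. Without immunoglobulin UMIs plasma cell-like cells were first for Eif2ak3 in both libraries, with 48.6 and 60.0. For Ddit3 they were then first in the ND library with 58.1 and next to mature neutrophil-like cells in the HFD library with 57.4. For Atf4 they were next to eosinophil-like cells with 432 and 544. Eif2ak3 and Ddit3 had under 100 UMIs over both libraries in plasma cell-like cells, so their place is uncertain.

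The outputs of the integrated stress response each had a different highest class. Ppp1r15a (GADD34), which restores translation, was highest in innate lymphoid cell-like cells (255 and 211 CPM), followed by basophil or mast cell-like (126 and 137) and plasma cell-like cells (95.2 and 92.5). Asns, asparagine synthetase, was highest in erythroid-like cells (209 and 216), with 51.7 and 59.6 in plasma cell-like cells. Without immunoglobulin UMIs plasma cell-like cells were next to the highest class for Ppp1r15a (177 and 180) and Asns (96.1 and 116). Trib3, a pseudokinase induced by CHOP, had at most 35 UMIs in a class and library, with 0 in both libraries of neutrophil progenitor-like cells.

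Across the clusters named as blood stem and progenitor (HSPC)-like and as neutrophil stages, Calr, Sdf2l1 and P4hb were highest in the neutrophil progenitor-like cluster, and Dnajb9 and Ddit3 in a mature neutrophil-like cluster. These genes were chosen after their values were seen. The clusters are set in the order of their class names and no trajectory was fitted. Calr was at 1906 and 2078 CPM in HSPC-like cluster 3, at 3105 and 3383 in the neutrophil progenitor-like cells and at 230 and 239 in immature neutrophil-like cluster 14. Sdf2l1 was at 324 and 341 in the progenitor-like cells, at 38.5 and 37.8 in cluster 14 and at 4.002 and 3.73 in immature neutrophil-like cluster 15.

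P4hb was at 842 and 833 CPM in the progenitor-like cells, at 102 and 101 in cluster 15 and at 35.8 and 21.7 in mature neutrophil-like cluster 24. Dnajb9 went from 61.6 and 78.2 in the progenitor-like cells to 180 and 155 in cluster 24 and 354 and 253 in mature neutrophil-like cluster 30. Ddit3 was at 35.2 and 40.2 in cluster 24 and at 102 and 137 in cluster 30. Median depth was 22280 and 23026 UMIs per cell in the progenitor-like cells and 1905 and 1799 in cluster 30, and its part in these levels was not tested.

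**Figure D3:**
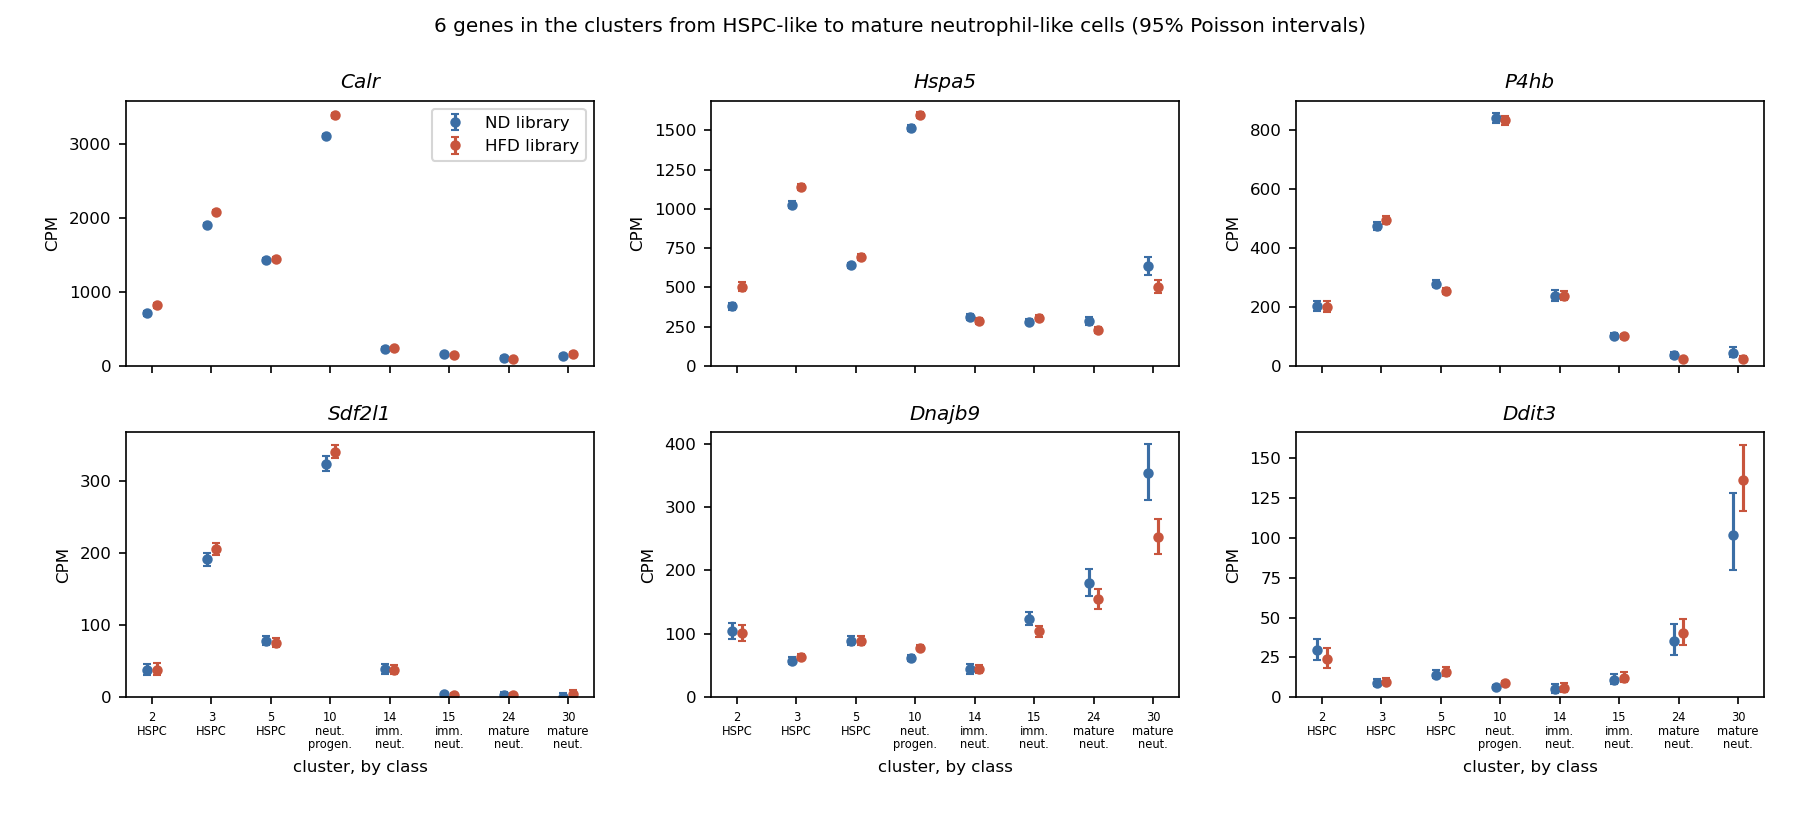
CPM (linear y axis from 0) of 6 genes in the clusters of the HSPC-like and neutrophil-like classes with at least 100 cells in both libraries (imm., immature; neut., neutrophil; progen., progenitor), with 95% Poisson intervals. Calr, Hspa5, P4hb and Sdf2l1 peak in neutrophil progenitor-like cluster 10, whereas Dnajb9 and Ddit3 peak in mature neutrophil-like cluster 30.

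Between the diets, no gene of the 32 with at least 100 UMIs in plasma cell-like cells differed by 1.5-fold or more, where 7.96% of all 2852 genes tested there did. Most ratios were small and above 0. The median log2 ratio of HFD over ND was 0.07, with 25 of the 32 above 0, while the median of all genes tested was -0.05. Eif2ak3, Ddit3 and Trib3 had fewer UMIs and were not tested. The major chaperones were near 0, with Hspa5 at 0.03 (-0.04 to 0.11) and Hsp90b1 at 0.02 (-0.03 to 0.07). The interval of Hsp90b1 covers counting error alone, and 1.5-fold is 0.585 on this scale. Under the alternatives Hsp90b1 lay between -0.00078 and 0.085. Immunoglobulin UMIs, 46.2% of the total in the ND and 48.6% in the HFD library, enter every ratio of this class. Without them Hsp90b1 was at 8082 and 8604 CPM.

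The ratios of 0.20 or more in plasma cell-like cells came from several roles. Edem2 was at 0.49 (0.19 to 0.79, 160 and 214 UMIs), Syvn1 at 0.34 (0.13 to 0.55) and Herpud1 at 0.30 (0.21 to 0.40, 1810 and 2130 UMIs). Sel1l went the other way, with -0.23 (-0.36 to -0.10, 1050 and 852 UMIs). Of the lumenal co-factors, Dnajb9 was at 0.34 (0.16 to 0.52) and Fkbp11, with few UMIs, at 0.34 (-0.14 to 0.83). Atf4 was at 0.27 (0.06 to 0.47) and Asns at 0.21 (-0.25 to 0.66). Smaller ratios were those of Xbp1 at 0.15 (0.07 to 0.23), Calr at 0.14 (0.05 to 0.23) and Mzb1 at 0.10 (0.02 to 0.17). Derl3 was at 0.01 (-0.12 to 0.14).

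Some of these ratios were not shared by plasma cell-like cells with and without a UMI of 5 mitotic genes (64 and 56 cells with, 77 and 79 without), a split that also depends on depth. In CPM without immunoglobulin UMIs, Xbp1 was at 3067 (ND) and 2937 (HFD) in cells with such a UMI and at 2723 and 3782 in those without. Sel1l was at 1146 and 833 in cells with such a UMI and at 1362 and 1357 in those without. Calr was at 2163 and 2820 in the former and at 2332 and 2395 in the latter. Herpud1 was higher in the HFD library in both, with 1753 and 2385 in cells with such a UMI and 2608 and 3126 in those without. The difference between these cells was not tested.

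With cells thinned to 1000 UMIs, the plasma cell-like median was -0.0067 and Dnajb9 was at -0.16, so both changed sign from the full depth. Thinning left few UMIs per gene, and the median was then taken over fewer genes. The part of depth in these changes was not tested. The stress-inducible HSP70 gene Hspa1a, which is not of the ER, was at 1.92 CPM in the ND and 40.9 in the HFD library in plasma cell-like cells. Its CPM was higher in the HFD library in each of the 18 classes, but hardly so in megakaryocyte-like cells (3.22 and 3.60, from few UMIs). Granule protein genes of neutrophils took 0.179% of UMIs in plasma cell-like cells in the ND and 0.0273% in the HFD library. The part of either in the ratios was not tested.

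In neutrophil progenitor-like cells, with far more UMIs, 1 of 32 genes tested passed 1.5-fold, Asns, against 1.49% of all 9534 genes tested (0.787% higher, 0.703% lower). Asns went from 17.1 to 25.9 CPM (219 and 381 UMIs, log2 ratio 0.60, 0.35 to 0.84). It lay close to the 1.5-fold limit and fell below it with the stricter cell filter, at 0.58. The median over the 32 genes was 0.08, with 25 above 0, and that of all genes tested was 0.01. Derl3, Mzb1 and Trib3 had fewer than 100 UMIs here.

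The chaperones with the most UMIs had narrow intervals close to 0 in these cells. Calr was at 0.12 (0.10 to 0.14), Hsp90b1 at 0.13 (0.10 to 0.16), Pdia3 at 0.11 (0.07 to 0.15), Hspa5 at 0.08 (0.05 to 0.10), Canx at 0.02 (-0.02 to 0.06) and P4hb at -0.01 (-0.05 to 0.02). All 8 degradation genes tested were above 0. Syvn1 was at 0.47 (0.31 to 0.63), Edem2 at 0.29 (0.10 to 0.47), Herpud1 at 0.28 (0.18 to 0.37) and Edem1 at 0.18 (0.08 to 0.29). With cells thinned to 1000 UMIs, Herpud1 turned to -0.22, Sel1l to -0.19 and Derl1 to -0.13. Edem3 turned to -0.17 with doublets kept, and was also below 0 at clustering resolutions 0.5 and 2.0. The 4 others (Edem1, Edem2, Derl2 and Syvn1) were above 0 under every alternative that gave them a value.

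Of the stress branches, Atf4 was at 0.28 (0.20 to 0.36), Dnajb9 at 0.34 (0.21 to 0.48) and Ddit3 at 0.49 (0.08 to 0.91), the last from 80 and 129 UMIs and between 0.14 and 0.75 under the alternatives. Ern1 was at -0.17 (-0.30 to -0.05) and Xbp1 at -0.03 (-0.11 to 0.05). Hspa1a was again higher in the HFD library, with 2.74 and 40.5 CPM, as was the cytosolic chaperone Hspa8 with 842 and 1054. The mitochondrial share of UMIs was 7.66% and 7.09%. Their part in these ratios was not tested.

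**Figure D4:**
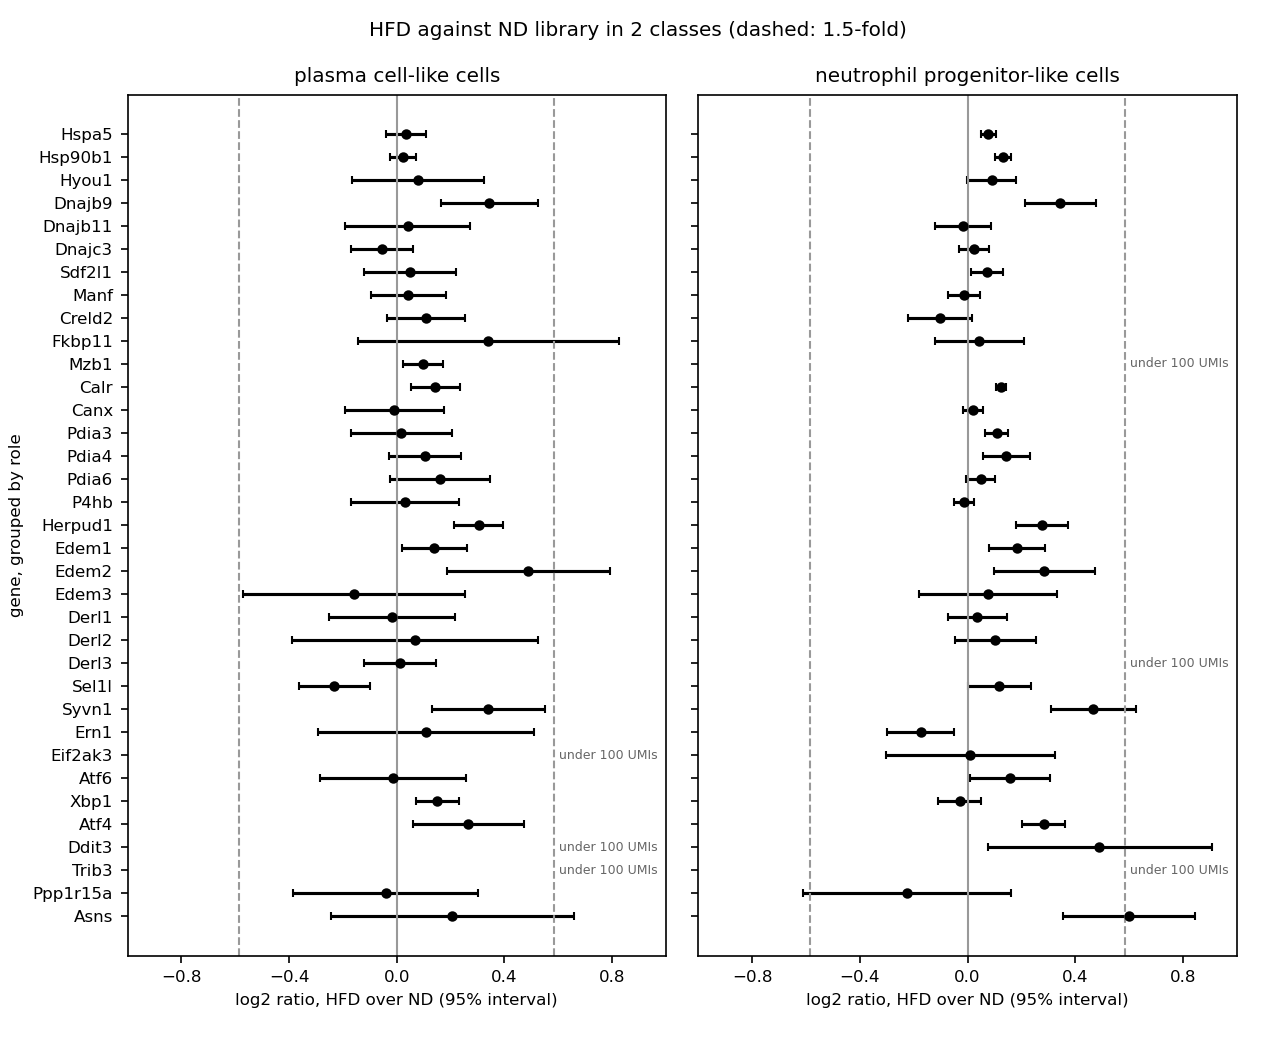
Log2 ratios of HFD over ND (x axis) of the 35 genes in plasma cell-like cells (left) and neutrophil progenitor-like cells (right), with exact conditional binomial 95% intervals for counting error and dashed lines at 1.5-fold. No gene lies past a dashed line in plasma cell-like cells, and Asns (0.60) is the gene past it in neutrophil progenitor-like cells.

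The other genes of the secretory pathway were followed as 7 lists. In plasma cell-like cells 3 genes of these lists passed 1.5-fold, each from few UMIs, where 7.96% of all 2852 genes tested did. The number of genes tested is given with each list. Prkcsh, a subunit of glucosidase II, was at 0.61 (0.02 to 1.21, 42 and 61 UMIs) and Sec24c, of the COPII coat, at 0.61 (0.23 to 0.99). Mcfd2, a cargo adaptor for transport to the Golgi, was at -0.65 (-1.24 to -0.07). Protein translocation had 18 of 24 genes tested above 0 and a median of 0.06, with Sec61a1, the pore of the translocon, at 0.31. N-glycosylation had 12 of 19 above 0 and a median of 0.12. Within it Rpn1, of the oligosaccharyl transferase, was at 0.41 while its catalytic subunit gene Stt3b was at -0.36. Other degradation genes had 8 of 12 above 0 and a median of 0.09, with Os9, a lectin that hands glycoproteins to the HRD1 ligase, at 0.47.

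The remaining lists had medians between -0.05 and 0.06 in plasma cell-like cells. Other thiol oxidoreductases had 4 of 8 above 0 and a median of -0.0086, with the peroxiredoxin Prdx4 at -0.38. ER to Golgi transport had 8 of 20 above 0 and a median of -0.0083, with the retrieval receptor Kdelr1 at 0.29. The amino acid and integrated stress response list had 7 of 13 above 0 and a median of 0.06, and other stress sensors had 4 of 8 and -0.05.

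In neutrophil progenitor-like cells 1 gene of these lists passed 1.5-fold, Creb3l1, an ER-bound transcription factor, at -1.24 (-1.88 to -0.63) from 70 and 34 UMIs. Of all 9534 genes tested in these cells, 1.49% passed 1.5-fold. The list of amino acid response and integrated stress response genes, to which Asns and Atf4 are related by function, had 16 of 17 genes tested above 0 and a median of 0.14, with none past 1.5-fold. Atf5 was at 0.48, the one-carbon enzyme Mthfd2 at 0.37, the amino acid carrier Slc7a5 at 0.36 and the serine synthesis enzyme Psat1 at 0.35. ER to Golgi transport had 19 of 22 above 0 with a median of 0.08.

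Smaller medians held for the other lists in neutrophil progenitor-like cells. Protein translocation had 19 of 25 above 0 and a median of 0.04, N-glycosylation 15 of 21 and 0.04, and other stress sensors 9 of 14 and 0.05. Other degradation genes had 11 of 17 above 0 and a median of 0.02. Within that list Vcp, the ATPase that pulls proteins out of the ER, was at 0.46 and the lectin gene Erlec1 at -0.19. Other thiol oxidoreductases and prolyl isomerases had 7 of 13 above 0 and a median of 0.0025, with the isomerase Fkbp2 at 0.57.

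In the 16 other classes, 9 of 427 pairs of gene and class passed 1.5-fold (2.11%, 6 higher and 3 lower), against 3.18% of 103065 pairs over all genes. 10 of the 16 classes had none. The share of all genes past 1.5-fold was 4.25% in eosinophil-like, 1.70% in basophil or mast cell-like, 8.59% in megakaryocyte-like, 3.89% in mature neutrophil-like, 3.89% in macrophage-like and 4.97% in NK cell-like cells, the classes with a call. Eosinophil-like cells had the highest median of the 35 genes (0.20, all genes 0.03) and mature neutrophil-like cells the lowest (-0.16, all genes -0.03). Under the alternatives these medians lay between 0.02 and 0.23 and between -0.31 and -0.085. In the median eosinophil-like cell the summed share of the 35 genes was 0.779% in the ND and 0.686% in the HFD library, unlike the pooled share, which was higher in the HFD library. The median over the 35 genes was above that of all genes tested in 16 of the 18 classes. The classes come from the same 2 libraries, so they are not independent of each other.

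In eosinophil-like cells Syvn1 (50.7 and 79.4 CPM, log2 ratio 0.65, 0.25 to 1.05) and Edem2 (49.5 and 74.4, log2 ratio 0.59, 0.18 to 1.00) passed 1.5-fold. Herpud1 was at 0.58 (0.40 to 0.77) and Hspa5 at 0.34 (0.27 to 0.41) there. Edem2 fell below 1.5-fold under 4 of 10 alternatives, to 0.07 with every cell weighted alike, 0.55 with all cells kept, 0.57 with median-of-ratios size factors and 0.57 with mitochondrial, haemoglobin, immunoglobulin, S100a8 and S100a9 UMIs left out of the total. Syvn1 was at 0.54 with every cell weighted alike. The median depth of these cells was 2523.5 UMIs in the ND and 1695.5 in the HFD library, while immunoglobulin UMIs went from 0.410% to 0.0270% there; the part of either was not tested. Edem2 was also past 1.5-fold in basophil or mast cell-like cells (0.60, 0.33 to 0.87), and within them at 0.62 in cluster 11 and 0.47 in cluster 25. It dropped just below 1.5-fold under 3 alternatives, to 0.58 at the lowest.

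Asns was the gene past 1.5-fold in megakaryocyte-like cells too (36.0 and 62.4 CPM, log2 ratio 0.80, 0.34 to 1.26, 67 and 104 UMIs). It stayed past 1.5-fold under 7 of 10 alternatives. It fell below with all cells kept, at resolution 0.5 and with every cell weighted alike, to 0.33 at the lowest. In mature neutrophil-like cells P4hb was lower (38.7 and 22.7 CPM, log2 ratio -0.77, -1.22 to -0.33), with -0.72 in cluster 24 and -0.89 in cluster 30. It was at -0.57 with members allowed among the variable genes. In macrophage-like cells Ddit3 was at 0.67 (0.09 to 1.26, 42 and 68 UMIs) and Ppp1r15a at 0.65 (0.21 to 1.09, 72 and 115 UMIs), the last at -0.05 with every cell weighted alike. In NK cell-like cells Sel1l was at -0.59 (-1.14 to -0.07, 113 and 42 UMIs) and Ppp1r15a at -0.65 (-1.30 to -0.03, 84 and 30 UMIs). The NK cell-like values fell below 1.5-fold under several alternatives, with Sel1l at -0.50 and Ppp1r15a at -0.48 at the smallest.

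Some genes were above 0 in nearly every class tested. Pdia3 was above 0 in 17 of 18 classes with a median of 0.11, Hspa5 in 16 of 18 with 0.14 and Edem1 in 15 of 16 with 0.15. Herpud1 was above 0 in 14 of 18 with a median of 0.18, Syvn1 in 13 of 16 with 0.17 and Edem2 in 9 of 11 with 0.48. By contrast P4hb was above 0 in 7 of 18 with a median of -0.02 and Creld2 in 7 of 15 with -0.01.

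**Figure D5:**
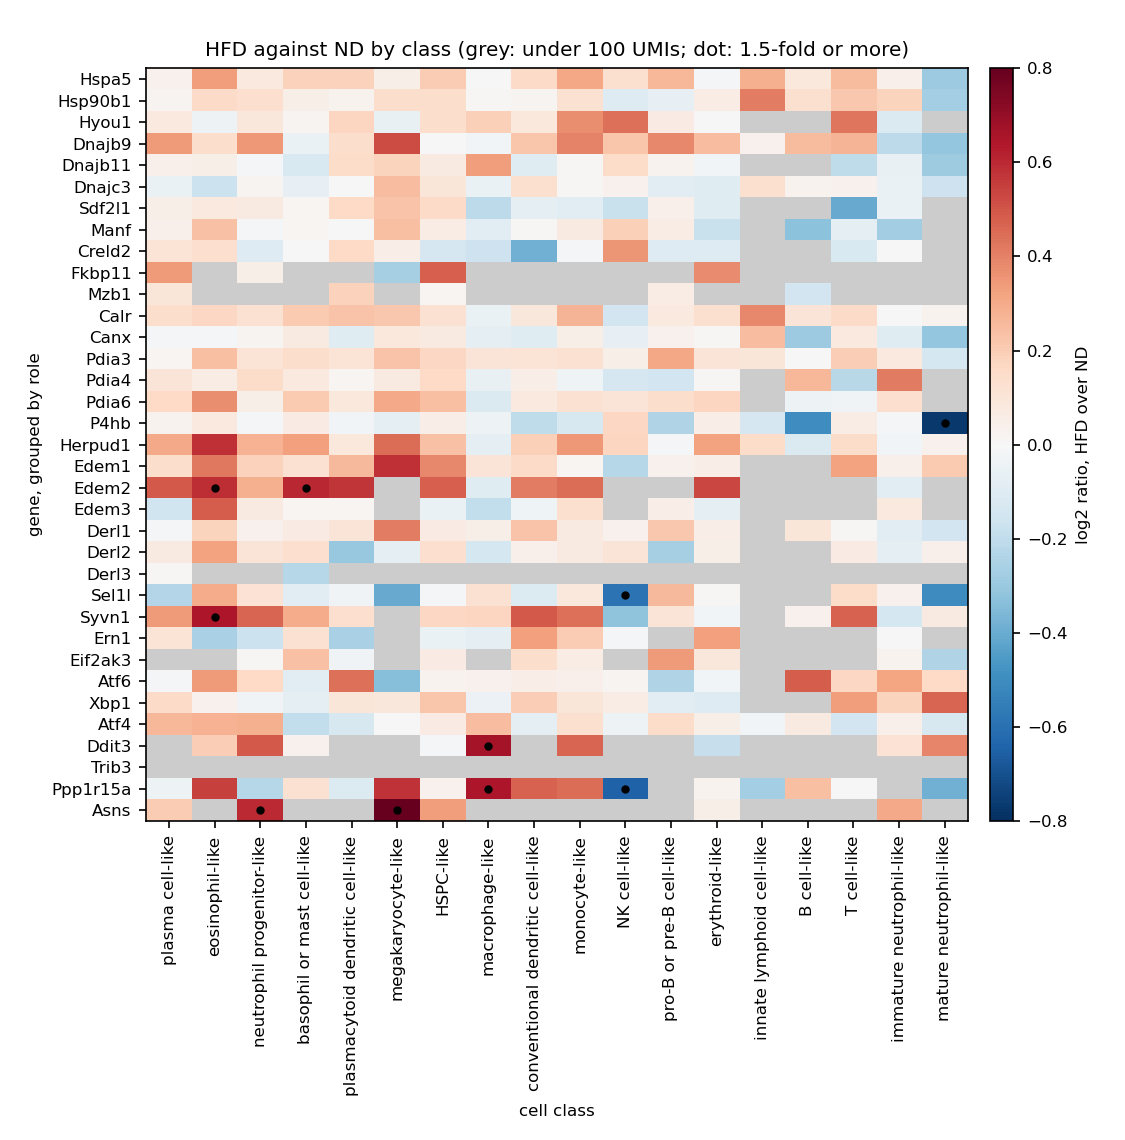
Log2 ratio of HFD over ND by gene (rows, grouped by role) and class (columns, ordered by the summed share of the 35 genes in the ND library). Red is higher in the HFD library, blue lower, grey under 100 UMIs, and dots mark 1.5-fold or more; the dots are 1 in neutrophil progenitor-like cells and 9 in the other classes outside plasma cell-like cells.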

How the data were processed

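The deposited tables hold counts, the molecules (UMIs) of each gene in each cell after the platform's RSEC error correction. The authors made them with version 1.9.1 of the BD WTA Rhapsody Analysis Pipeline, as stated per the file headers. Genome build and annotation: not given in the sources used here. Members, lists and markers were chosen with earlier results of these data known.

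Kept cells had 200 or more genes and no more than 25% mitochondrial UMIs. Scrublet doublets (expected rate 5%, 406 ND and 432 HFD cells) were removed. In scanpy 1.11.5, counts scaled to 10000 per cell gave 2000 variable genes without the members, 30 components, 15 neighbours and Leiden clusters at resolution 1.0. A cluster took the class with the most markers, 3 or more, among its top 50 genes by fold (pseudocount 10 CPM, detected in 10% of its cells). It stayed unnamed where another class had more markers among its top 10 genes, as in cluster 26. Clusters of low depth also needed a marker of their class among the top 10. No marker was a member.

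UMIs were summed per class and library. Shares and CPM carry exact Poisson intervals and log2 ratios exact conditional binomial intervals, both at 95%. Zero counts were set to a floor of 3 for ratios. With 1 library per diet no test was made. Ratios of 1.5-fold or more were called among genes with 100 or more UMIs over both libraries. All members are described. Of each other list, called genes and genes among the 4 with the largest ratios at 400 UMIs or more are named. Single clusters, antibody classes, the mitotic split and cluster 26 were chosen after their values were seen. The ratio script was tested on simulated data. Alternatives covered cell filters, doublets, resolution, variable genes, scaling, thinning and the UMI minimum. Promoter windows came from RefSeq (GRCm38.p6).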

Additional observations from a re-analysis of the deposited data

Results flagged for a closer look

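Ppp1r15a, which encodes the phosphatase subunit that restores translation after stress, went in opposite directions in a pair of classes. Its log2 ratio of HFD over ND was 0.65 in macrophage-like cells (72 and 115 UMIs) and -0.65 in NK cell-like cells (84 and 30 UMIs). Each class has 1 library per diet, so the difference between the classes was not tested. In macrophage-like cells it was at 0.72 in cluster 20 and at 0.36 in cluster 21.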

How the results depend on the processing

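Over 12 alternatives, 1010 values were recomputed. They were log2 ratios of single genes and, for each of the 16 other classes, the median over the 35 genes. Of these, 968 stayed within their interval of the main run and 41 moved beyond it. That interval covered counting error for single genes and came from the ranked ratios of the genes for medians. The remaining 1 was a called value that changed sign, Ppp1r15a in macrophage-like cells (-0.052 as the mean over cells). Of the 41 values that moved, 26 came from cells thinned to 1000 UMIs, where 24 of 50 values stayed within their interval. The settings of the UMI minimum change which genes are tested and leave the ratio of a single gene as it was. The number of the 35 genes past 1.5-fold in neutrophil progenitor-like cells (1) was 0 with a stricter cell filter (500 genes, 15% mitochondrial UMIs), 2 with doublets kept and 2 with a minimum of 20 UMIs. In plasma cell-like cells it was 1 in place of 0 with cells thinned to 1000 UMIs, where the median was -0.0067. In the other classes the 9 pairs became 17 with every cell weighted alike, 25 with a minimum of 20 UMIs and 1 with a minimum of 400. The 3 pathway genes in plasma cell-like cells became 0 with thinned cells, 5 with a minimum of 20 UMIs and 0 with 400. The 1 pathway gene in neutrophil progenitor-like cells became 2 with doublets kept, at resolution 0.5 and with every cell weighted alike, and 0 at resolution 2.0, with thinned cells and with a minimum of 400 UMIs. A lower minimum tests more genes and a higher one fewer; for the other settings the cause was not tested. No paired analysis was possible because each diet has 1 library.

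Plasma cell-like cells numbered 141 and 135, so genes of few UMIs have wide intervals there. Thinning left few UMIs per gene. UMIs within a cell are not independent draws of a class, which the intervals leave out. Differences between mice, and between diet and library preparation, cannot be told apart from the diet.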

Other observations

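Plasma cell-like cells were divided by the heavy chain with the most UMIs in each cell, which took at least 90% of heavy chain UMIs in 274 of 276 cells. This division was made after the values were seen. IgM cells numbered 98 in the ND and 91 in the HFD library, IgA cells 34 and 39, and IgG cells 9 and 5. Of UMIs that were not immunoglobulin, the 35 genes took 3.67% and 4.03% in IgM cells and 3.91% and 4.27% in IgA cells.

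Single genes differed between the antibody classes in the same direction in both libraries. In CPM over UMIs that were not immunoglobulin, Edem2, of glycoprotein degradation, was at 152 (ND) and 203 (HFD) in IgM cells and at 275 and 423 in IgA cells. Edem1 was at 1169 and 1262 in IgM and at 1626 and 2278 in IgA cells, and the chaperone Hsp90b1 at 7288 and 7678 against 9609 and 9760. Xbp1 was at 2817 and 3019 in IgM and at 3203 and 4318 in IgA cells. Herpud1 was lower in IgA cells, with 1722 and 2139 against 2442 and 3097 in IgM cells. Calr (1910 and 2129 against 2510 and 2748) and Sel1l (970 and 960 against 1394 and 1212) were also lower. Within IgM cells Herpud1 was higher and Sel1l lower in the HFD than in the ND library, as in the whole class.

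Cluster 26, of 710 ND and 902 HFD cells, was led by the B cell genes Ms4a1, Cd79a and Vpreb3. It stayed unnamed because B cell markers led among its top 50 genes but pro-B or pre-B cell markers among its top 10. Syvn1, the ubiquitin ligase of ER-associated degradation, was at 372 and 456 CPM in it, above its level in each of the 18 named classes with all UMIs in the totals. Without immunoglobulin UMIs, which were 1.99% and 2.12% of UMIs in cluster 26, plasma cell-like cells were at 414 and 549. In cluster 26 Herpud1 was at 566 and 550 CPM, above the 398 and 396 of pro-B or pre-B cell-like cells, and Mzb1 was at 337 and 348.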
